A study of Mus musculus with 32 samples.

Results

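The results concern 31 genes of the cell cycle, chosen by name from the 56748 genes of the count table: 21 that act in mitosis and 10 that act in DNA replication. The mitotic genes are Cdk1, Ccnb1, Ccnb2, Ccna2, Aurka, Aurkb, Birc5, Plk1, Bub1, Bub1b, Cdc20, Kif11, Kif20a, Kif23, Tpx2, Nusap1, Prc1, Cenpe, Cenpf, Top2a and Mki67. The replication genes are Mcm2, Mcm3, Mcm4, Mcm5, Mcm6, Mcm7, Pcna, Rrm1, Rrm2 and Tyms. Poly(A) RNA came from white adipocytes grown in primary culture from the subcutaneous fat of mice labelled WT. The cells had received a scramble siRNA, siNfe2l1, siAtf3, or siNfe2l1 together with siAtf3, and each of these was combined with control treatment or with 400 µM cholesterol carried on methyl-β-cyclodextrin for 6 h. That made 8 groups of 4 libraries, and all groups carried some siRNA. Whether cells in control treatment also received the carrier is not stated.

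As background, a dividing cell first copies its DNA in S phase and then separates the copies in mitosis. Genes of the replication machinery are transcribed mainly at the boundary of G1 and S under E2F factors, and mitotic genes in G2 and mitosis under the MuvB, B-Myb and FoxM1 proteins. In resting cells the DREAM complex represses both sets. Mature white adipocytes have left the cell cycle, whereas the precursor cells from which such cultures are grown divide. Nfe2l1 and Atf3 are transcription factors, the first a regulator of proteasome genes and the second a stress-induced member of the ATF/CREB family.

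Total counts were 23457384 to 33828418 per library, and 16984 genes passed the filter on low counts, all 31 cell cycle genes among them. Raw counts of these 31 genes ran from 23 (Kif23) to 2434 (Rrm1) per library. Nfe2l1 had 487 ± 6.02 CPM (counts scaled by library size, mean ± SD, n = 4) with scramble in control and 73.8 ± 8.66 with siNfe2l1, and Atf3 had 26.8 ± 2.43 with scramble and 10.1 ± 0.780 with siAtf3. With cholesterol, Atf3 stood at 281 to 561 with scramble and at 36.3 to 52.7 with siAtf3. With siNfe2l1 and cholesterol it spanned 134 to 481. With both siRNAs in control, Nfe2l1 had 114 ± 1.91 and Atf3 15.3 ± 1.41 CPM, so both were reduced less than with the single siRNAs. Cholesterol separated the libraries on the first principal component, which held 80.2% of the variance, and siNfe2l1 cholesterol libraries 3 and 4 lay nearest to the controls there, at 27.7 and 24.0 against 28.6 to 43.6 for the other cholesterol libraries. The adipocyte markers Adipoq, Plin1 and Fabp4 had at least 676, 1552 and 4014 CPM in every library. Col1a1, used here as a marker of precursor and fibroblast cells, was abundant too, at 1645 to 12183 CPM. The precursor markers Dpp4 and Pi16 stayed under 1 CPM. Which cells made the Col1a1 RNA was not measured.

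Promoters of the members are shown first, because the mitotic and the replication genes differed there in short words. A window of 300 bases per gene, 250 before and 50 from the transcription start onward, was taken from RefSeq (GRCm38.p6) for 26 of the 31 genes, 17 mitotic and 9 replication genes. Tpx2, Ccna2, Aurkb, Mcm4 and Kif20a had no entry. Words were searched on both strands. The cell cycle homology region (CHR, searched as TTTGAA or TTCGAA), to which MuvB binds, was present in 13 of 17 mitotic windows (76.5%) and 2 of 9 replication windows (22.2%), against 19.4% of all 27025 genes with an entry. The E2F word (TTTCCCGC, TTTCGCGC, TTTGCCGC or TTTGGCGC) was present in 4 of 9 replication windows (44.4%), 1 of 17 mitotic windows (5.88%) and 2.32% of all. Without its first base, which lets it match more often and includes every match of the longer word, it was found in 66.7% of replication, 17.6% of mitotic and 9.69% of all windows. The CCAAT box, the site of NF-Y, was common in both sets, at 88.2% of mitotic and 88.9% of replication windows against 37.9% of all. Of the words of the factor families to which Atf3 and its partners belong, the CRE word TGACGTCA was in 1 mitotic and 1 replication window, those of Cenpe and Mcm5 (5.88% and 11.1%, against 1.88% of all), and the AP-1 word TGACTCA was in 0 of 26 windows (5.17% of all). A match is a run of letters only, and binding was not measured.

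The mitotic and the replication genes with the largest cholesterol responses among those with an entry are printed below, from 220 bases before to 30 bases from the start onward, 5′ to 3′ on the gene's strand, with CHR words, CCAAT boxes and E2F words of either length in capitals. Plk1 lies at chr7:122159215-122159464 (plus strand), Cenpf at chr1:189688057-189688306 (minus strand), Mcm5 at chr8:75109289-75109538 (plus strand) and Mcm6 at chr1:128359676-128359925 (minus strand), all in GRCm38.p6. The CHR word of Plk1 begins 30 bases after the start, directly past the printed stretch, and that of Cenpf 2 bases after it.
Plk1: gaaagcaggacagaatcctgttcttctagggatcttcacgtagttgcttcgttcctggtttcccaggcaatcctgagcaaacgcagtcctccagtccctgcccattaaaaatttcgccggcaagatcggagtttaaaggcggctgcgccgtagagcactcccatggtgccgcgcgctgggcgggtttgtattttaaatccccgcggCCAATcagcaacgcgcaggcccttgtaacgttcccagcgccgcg
Cenpf: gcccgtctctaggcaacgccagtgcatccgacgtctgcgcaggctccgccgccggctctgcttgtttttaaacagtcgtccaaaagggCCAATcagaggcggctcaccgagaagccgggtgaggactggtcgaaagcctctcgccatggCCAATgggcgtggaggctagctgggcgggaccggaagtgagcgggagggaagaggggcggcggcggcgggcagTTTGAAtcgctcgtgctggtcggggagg
Mcm5: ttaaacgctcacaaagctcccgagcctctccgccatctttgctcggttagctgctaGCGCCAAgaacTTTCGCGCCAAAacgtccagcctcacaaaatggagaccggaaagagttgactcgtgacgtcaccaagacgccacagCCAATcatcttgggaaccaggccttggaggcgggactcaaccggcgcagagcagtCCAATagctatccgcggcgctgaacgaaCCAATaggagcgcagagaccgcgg
Mcm6: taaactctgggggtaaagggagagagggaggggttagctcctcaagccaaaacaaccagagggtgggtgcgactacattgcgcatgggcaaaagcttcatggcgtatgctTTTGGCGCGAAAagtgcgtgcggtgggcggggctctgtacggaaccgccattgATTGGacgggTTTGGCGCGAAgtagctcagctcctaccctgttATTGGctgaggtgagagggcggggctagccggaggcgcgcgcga
Cenpf carries CCAAT boxes upstream of its CHR, and Mcm5 and Mcm6 carry E2F words together with CCAAT boxes and no CHR.

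The mitotic genes as a set stood lower in every cholesterol library than in any control library, and the replication genes fell less. As a summary, log2 CPM was averaged over the genes of each set and set against the mean of the scramble control libraries. This mitotic value was -1.60 ± 0.06 with cholesterol and scramble (mean ± SD, n = 4), -1.50 ± 0.11 with siNfe2l1, -1.67 ± 0.11 with siAtf3 and -1.64 ± 0.14 with both siRNAs. The replication value in the same groups was -0.59 ± 0.06, -0.56 ± 0.03, -0.31 ± 0.03 and -0.43 ± 0.06. In control treatment the mitotic value was -0.08 ± 0.20 with siNfe2l1, -0.29 ± 0.13 with siAtf3 and -0.34 ± 0.05 with both, and the replication value was 0.05 ± 0.09, 0.11 ± 0.03 and 0.04 ± 0.03. The siNfe2l1 control libraries spread most, from -0.29 to 0.19 for the mitotic genes. The distance between the sets, replication minus mitotic, was 1.01 ± 0.08 with cholesterol and scramble, and 1.35 ± 0.09 with cholesterol and siAtf3. In control treatment it was 0.41 ± 0.12 with siAtf3, 0.39 ± 0.05 with both siRNAs and 0.13 ± 0.12 with siNfe2l1. With siAtf3, alone or with siNfe2l1, the sets thus stood apart already without cholesterol (0.23 to 0.50 and 0.35 to 0.45, against -0.06 to 0.06 with scramble). The siNfe2l1 control libraries spanned -0.02 to 0.26 and overlapped those with siAtf3 alone. Averages over chosen genes were given no test.

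**Figure D1:**
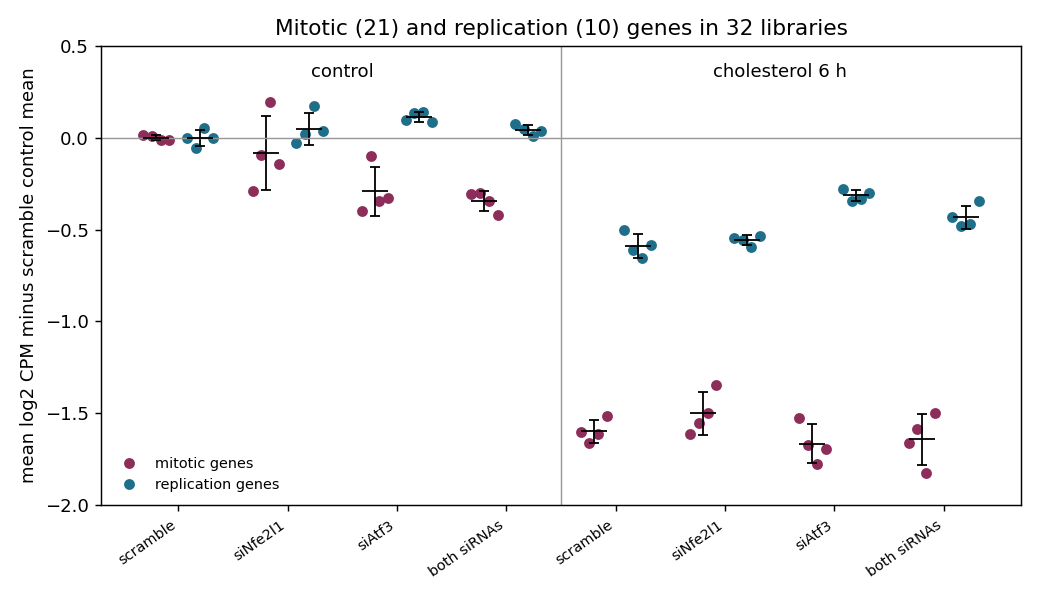
Mean log2 CPM of the 21 mitotic and 10 replication genes in each of 32 libraries (vertical axis, relative to the mean of the scramble control libraries), by siRNA (horizontal axis) in control and cholesterol treatment. Points are libraries, horizontal dashes and bars are mean ± SD of 4. Mitotic points drop to between -1.82 and -1.34 with cholesterol, replication points to between -0.65 and -0.28.

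Together the mitotic genes held 267 ± 2.14 CPM with scramble in control and 90.5 ± 3.09 with cholesterol. The replication genes held 280.0 ± 6.30 and 203 ± 8.52 CPM, and with siAtf3 323 ± 6.21 and 254 ± 3.83 CPM. In RNA of a whole culture, fewer cells of a type and less RNA per cell cannot be told apart. Markers of several cell types moved with cholesterol as well. The summed CPM of 10 precursor and fibroblast markers was 23265 to 24584 with scramble in control and 6960 to 7895 with cholesterol, and 8 of the 9 tested fell. The sum of 9 macrophage markers was 207 to 242 CPM in control and 127 to 156 CPM with cholesterol, with 7 of 9 lower. That of 6 endothelial markers was 572 to 620.2 and 278 to 368 CPM, with 6 of 6 lower, and that of 6 smooth muscle and pericyte markers 851 to 878 and 321 to 350.3 CPM, with 4 of 6 lower. The sum of 8 adipocyte markers was 9670 to 10125 in control and 13015 to 15030 with cholesterol, with 7 of 8 higher. Of all genes 32.3% were called lower and 32.9% higher. Sums of markers, here and below, mostly follow the most abundant genes of each list. In scramble control Col1a1, Col3a1 and Col1a2 had means of 9861, 7333 and 5687 CPM. Acta2 and Pdgfrb had 455 and 376, Lyz2 91.3 and Fabp4 5232 CPM. No marker of these lists was at 0 in all libraries of a group, and the part of cell makeup in the results was not tested.

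All 21 mitotic genes fell with cholesterol in the scramble libraries, by 1.75-fold (Tpx2) to 5.36-fold (Plk1), with a median log2 fold change of -1.58. Over all genes tested the median was 0.00, and 32.3% were called lower and 32.9% higher at an adjusted p under 0.05 (quasi-likelihood test of edgeR, Benjamini-Hochberg). The same 21 fell with siNfe2l1 (median -1.42, background 29% lower and 31.1% higher), with siAtf3 (median -1.38, background 28.6% and 29.4%) and with both siRNAs (median -1.31, background 28.9% and 29.8%). These 4 comparisons share no library. Scaling by total counts in place of TMM moved the median of all genes with scramble to -0.12 and the split from 5584 higher and 5487 lower to 4332 and 6804, and left all 21 lower.

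Cdk1, the kinase that drives entry into mitosis (chr10:69170976-69188768, GRCm39), had 17.9, 18.7, 17.6 and 17.3 CPM in the scramble control libraries and 6.42, 4.95, 4.62 and 5.43 CPM with cholesterol. Every cholesterol library lay far below every control library. Its log2 fold change was -1.74 ± 0.12 (± standard error, adjusted p = 2.73e-15). Its partners fell likewise: Ccnb1 (cyclin B1) went from 10.9, 11.5, 10.8 and 10.7 CPM to 3.84, 3.23, 4.07 and 3.61 CPM, a log2 fold change of -1.58 ± 0.14 (adjusted p = 7.51e-12). Ccna2, cyclin A2 of S phase and G2, fell most of the 4 cyclin and Cdk genes, from 13.3 ± 1.18 to 3.03 ± 0.607 CPM (-2.12 ± 0.17). Ccnb2 (cyclin B2) was at -1.57 ± 0.16, and is uncertain, since its pseudogene Ccnb2-ps had 14 to 38 counts per library, up to 65.7% of the Ccnb2 count. Ccnb1-ps reached 13.9% of Ccnb1 and Pcna-ps2 3.13% of Pcna in any library.

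Among the mitotic kinases and checkpoint genes, Plk1 (polo-like kinase 1, chr7:121758662-121769096, GRCm39) had 9.87, 9.98, 10.3 and 9.58 CPM in control and 2.06, 1.51, 2.01 and 1.82 CPM with cholesterol. The groups did not overlap, and the log2 fold change of -2.42 ± 0.17 was the lowest of the 31 genes. Cdc20, which activates the anaphase-promoting complex, went from 14.1, 14.3, 15.5 and 13.1 to 4.59, 4.11, 3.47 and 4.27 CPM (-1.80 ± 0.12). The checkpoint genes Bub1 and Bub1b were at -1.55 ± 0.16 and -1.68 ± 0.14. Aurkb and Birc5 (survivin), partners in the chromosomal passenger complex, were at -1.54 ± 0.19 and -1.17 ± 0.13, and Aurka, the Aurora kinase of spindle poles, at -1.16 ± 0.12. The median of the 7 was -1.55.

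The 6 spindle and midzone genes had a median log2 fold change of -1.40. The kinesins of the central spindle, Kif23 and Kif20a, were at -1.82 ± 0.15 and -1.76 ± 0.12, and Kif11, the motor that separates spindle poles, at -1.48 ± 0.12. Prc1, which bundles midzone microtubules, was at -1.32 ± 0.10 and Nusap1, a spindle microtubule protein, at -1.30 ± 0.19. Tpx2, a spindle assembly factor that activates Aurora A, changed least of the mitotic genes, from 19.6 ± 1.61 to 11.2 ± 1.15 CPM (-0.81 ± 0.10, adjusted p = 9.13e-09).

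Of the kinetochore and chromosome genes, Top2a (topoisomerase II alpha, chr11:98883769-98915015, GRCm39) had 34.04, 36.2, 35.7 and 37.3 CPM in control and 9.23, 11.03, 11.4 and 11.9 CPM with cholesterol, again without overlap. With siAtf3 it went from 25.1, 30.7, 24.7 and 25.7 to 9.40, 7.81, 7.85 and 8.16 CPM, so its log2 fold change of -1.68 ± 0.09 was near that with scramble (-1.71 ± 0.09). Mki67, the proliferation antigen Ki-67, went from 35.1, 36.9, 34.99 and 35.3 to 9.79, 14.2, 13.6 and 12.6 CPM (-1.50 ± 0.11). Of the kinetochore genes, Cenpe was at -1.80 ± 0.13 and Cenpf went from 7.85 ± 0.317 to 1.95 ± 0.361 CPM.

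The replication genes did not move as a block. With cholesterol in scramble 7 of 10 fell, Rrm2 rose, and Mcm2 and Mcm7 did not pass the test, with a median of -0.74. Of all genes 32.3% were lower and 32.9% higher there. The replication counts were again 7 lower and 1 higher with each of the other siRNA treatments (medians -0.68 with siNfe2l1, -0.53 with siAtf3 and -0.59 with both). Rrm2 was the gene that rose in every case. The shares of all genes were 29% lower and 31.1% higher with siNfe2l1, 28.6% and 29.4% with siAtf3, and 28.9% and 29.8% with both. With both siRNAs Mcm7 was among those that fell (-0.22 ± 0.06, adjusted p = 0.00175) and Pcna was not (-0.08 ± 0.05, adjusted p = 0.177).

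The 6 Mcm genes encode the ring of the replicative helicase, in which each protein occurs once, yet their transcripts changed by different amounts. Mcm5 (chr8:75836197-75855067, GRCm39) had 17.995, 16.2, 17.3 and 17.2 CPM in control and 6.56, 6.58, 5.91 and 7.05 CPM with cholesterol, a log2 fold change of -1.39 ± 0.09 (adjusted p = 2.18e-16). That of Mcm6 was -1.16 ± 0.07, that of Mcm4 -1.11 ± 0.07 and that of Mcm3 -0.58 ± 0.06. Mcm2 (chr6:88860456-88875762, GRCm39) had 22.4, 19.5, 22.1 and 21.7 CPM in control and 22.6, 18.4, 20.6 and 18.4 CPM with cholesterol. Its libraries overlapped, at -0.10 ± 0.09 (adjusted p = 0.339). Mcm7 had 29.8, 28.6, 32.6 and 30.7 CPM and 35.4, 30.9, 34.6 and 31.1 CPM, also with overlap, at 0.12 ± 0.06 (adjusted p = 0.0911). Per kilobase of gene length in scramble control, Mcm4 (7.22 ± 0.0918 CPM per kb), Mcm3 (6.94 ± 0.223), Mcm7 (6.87 ± 0.386) and Mcm6 (6.57 ± 0.342) came first, in an order that was not tested. Mcm5 (4.30 ± 0.182) and Mcm2 (3.08 ± 0.186) stood lower. With cholesterol Mcm7 led the ring genes at 7.46 ± 0.526 CPM per kb and Mcm5 was last at 1.63 ± 0.118.

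The large and the small subunit of ribonucleotide reductase, the enzyme that makes deoxynucleotides, moved in opposite directions. Rrm1 (chr7:102090902-102118978, GRCm39) had 55.9, 55.1, 55.05 and 53.3 CPM in control and 25.2, 25.8, 24.2 and 26.4 CPM with cholesterol, a log2 fold change of -1.11 ± 0.06 (adjusted p = 7.60e-18). Rrm2 (chr12:24758240-24764145, GRCm39) had 25.5, 22.3, 27.3 and 27.1 CPM in control and 41.8, 37.5, 37.5 and 38.4 CPM with cholesterol, every cholesterol library above every control library, at 0.60 ± 0.08 (adjusted p = 6.16e-08). It rose with siNfe2l1 (0.41 ± 0.08), where the libraries overlapped, with siAtf3 (0.66 ± 0.08) and with both (0.52 ± 0.08). Tyms, thymidylate synthase, had 10.1, 10.02, 12.6 and 9.51 CPM in control and 6.23, 5.58, 4.75 and 5.93 CPM with cholesterol (-0.91 ± 0.10). Pcna, the sliding clamp and the most abundant of the 31 per kilobase (15.6 ± 0.252 CPM per kb in scramble control), had 37.6, 36.5, 37.7 and 37.7 CPM in control and 32.7, 32.6, 27.4 and 30.9 CPM with cholesterol. Its change of -0.27 ± 0.05 (adjusted p = 3.99e-05) was the smallest of those that fell.

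**Figure D2:**
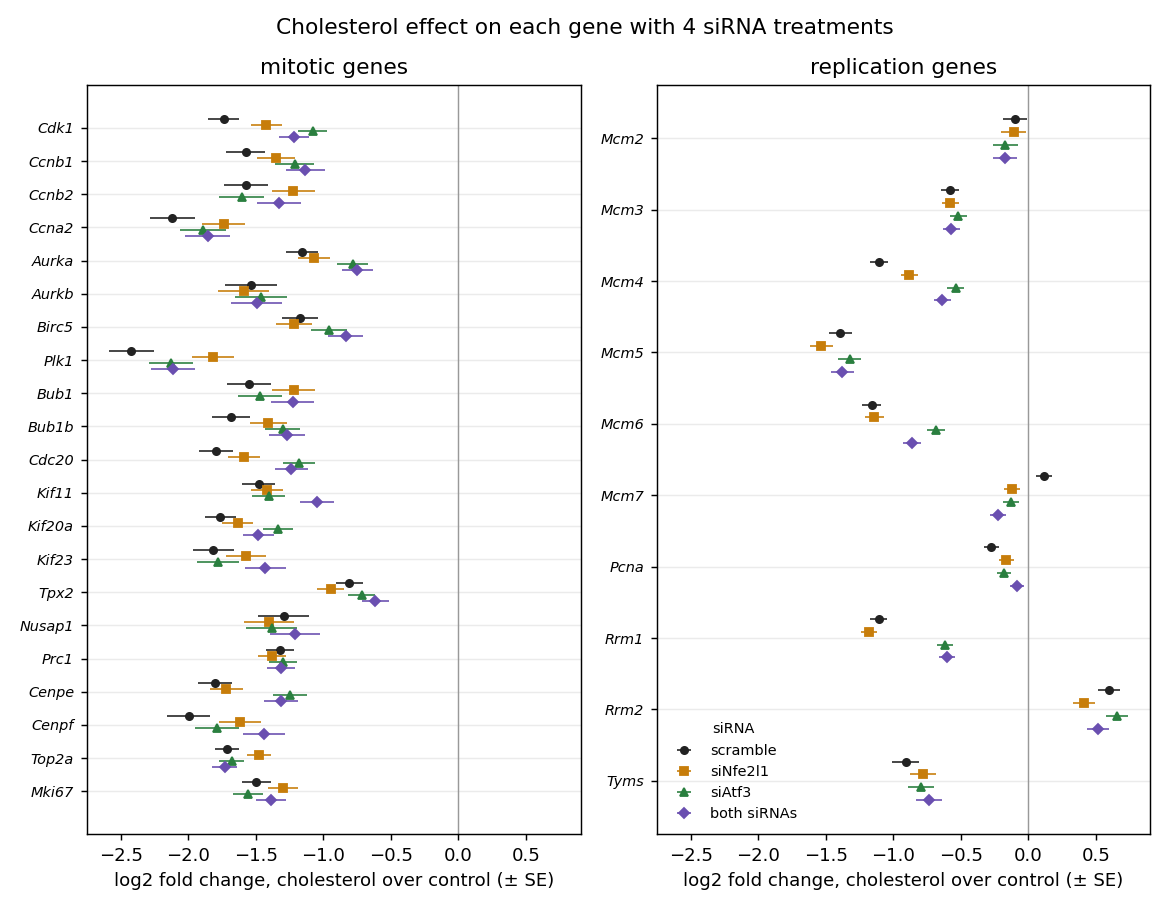
Log2 fold change with cholesterol (horizontal axis, ± SE of the fit over all 32 libraries) of each mitotic gene (left) and replication gene (right), with the siRNA shown by symbol and 4 against 4 libraries per point. All mitotic points lie left of 0, whereas Rrm2 lies right of it and Mcm2, Mcm7 and Pcna lie near it.

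Silencing Atf3 in control treatment was followed by lower levels of some mitotic and higher levels of some replication transcripts. Of the mitotic genes 9 of 21 fell (median -0.30), and of the replication genes 5 of 10 rose and Mcm2 fell (median 0.14). In this comparison 18.2% of all genes were called lower and 18.1% higher. Those that fell were Mki67 (-0.57 ± 0.10, adjusted p = 3.37e-05), Top2a (-0.43 ± 0.08), Cenpe (-0.48 ± 0.11), Cenpf (-0.49 ± 0.13), Ccna2 (-0.51 ± 0.14), Ccnb1 (-0.41 ± 0.13), Kif23 (-0.38 ± 0.13), Prc1 (-0.34 ± 0.10) and Kif11 (-0.34 ± 0.11). Mki67 had 23.8, 29.3, 22.3 and 20.6 CPM with siAtf3, all below the scramble libraries. Cdk1 and Aurka were at 0.08 ± 0.10 and -0.02 ± 0.11 and did not pass the test. Scaling by total counts raised the median of all genes to 0.15, changed the split from 3071 higher and 3093 lower to 5913 higher and 1871 lower, and left 5 mitotic genes called lower, Ccnb1, Kif11, Kif23 and Prc1 no longer passing. The mitotic median was then -0.16. The Ccnb1 call was also lost without siAtf3 control library 3 (adjusted p = 0.0586) and that of Kif23 without library 1 (0.0629).

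The replication genes that rose with siAtf3 in control were Rrm1, Mcm7, Pcna, Mcm6 and Mcm4. Rrm1 had 74.8, 85.2, 78.6 and 76.5 CPM, against 53.3 to 55.9 with scramble, a log2 fold change of 0.52 ± 0.06 (adjusted p = 2.24e-09). Mcm7 had 38.002, 39.3, 38.8 and 39.6 CPM (0.35 ± 0.06, adjusted p = 1.14e-05) and Pcna had 46.5, 43.1, 46.8 and 44.4 CPM (0.27 ± 0.05). Mcm6 and Mcm4 rose by 0.24 ± 0.07 and 0.19 ± 0.06. Mcm2 fell, with 15.2, 16.3, 19.2 and 15.7 CPM (-0.37 ± 0.09, adjusted p = 0.00131). Rrm2, Tyms, Mcm3 and Mcm5 were at -0.06, 0.00, -0.10 and 0.08 and did not pass. The Mcm4 call was lost without siAtf3 control library 1 (0.16, adjusted p = 0.0750) and with no filter on low counts (adjusted p = 0.0842).

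With both siRNAs in control, which share the scramble control libraries with the siAtf3 comparison, 12 of 21 mitotic genes fell (median -0.35), while 4 replication genes rose and Mcm2 fell (median 0.06), against 14.3% of all genes lower and 12.9% higher. The lowest were Kif11 (-0.61 ± 0.11, adjusted p = 6.33e-05), Mki67 (-0.58 ± 0.10), Cenpf (-0.50 ± 0.13), Ccnb1 (-0.49 ± 0.13) and Ccna2 (-0.49 ± 0.14). Rrm1 (0.31 ± 0.06), Mcm7 (0.21 ± 0.06), Pcna (0.19 ± 0.05) and Mcm6 (0.18 ± 0.07) rose, each by less than with siAtf3 alone. Whether these sizes differ between the 2 treatments was not tested. Atf3 itself was reduced less with both siRNAs (15.3 ± 1.41 CPM) than with siAtf3 alone (10.1 ± 0.780 CPM), and the part of this was not tested. Scaling by total counts moved the median of all genes to 0.11 and the split from 2199 higher and 2426 lower to 4373 and 1473, and it ended the calls of Ccnb2, Birc5, Cdc20, Cenpe and Mcm2. Single libraries decided several calls too. Without double control library 4, Birc5, Ccnb2, Cdc20, Cenpe and Mcm2 did not pass, and Mcm6 did not pass without scramble control library 1, 2 or 3 or double control library 1 or 2 (adjusted p = 0.0626 to 0.204). Birc5 was further lost without scramble library 3 or double library 1 or 2, Ccnb2 without scramble library 2 or double library 1, Cdc20 without scramble library 3 or double library 3, and Mcm2 without scramble library 1 or 3 or double library 2.

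Precursor and fibroblast markers summed to 16392 to 17084 CPM with siAtf3 and 18246 to 19169 CPM with both siRNAs in control, against 23265 to 24584 with scramble. With siAtf3, 5 of the 9 tested fell and 1 rose, and of 9 macrophage markers 4 rose and 1 fell, against 18.2% of all genes lower and 18.1% higher. Macrophage markers summed to 286 to 374 and 466 to 508 CPM against 207 to 242, endothelial markers to 452 to 473 and 484 to 507 against 572 to 620.2, and smooth muscle and pericyte markers to 638 to 714 and 662 to 712 against 851 to 878. Their part in the mitotic and replication changes was not tested.

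With cholesterol present, Rrm1, Mcm4 and Mcm6 differed more between siAtf3 and scramble than without it, by the interaction test described further on. Rrm1 had 47.8, 51.7, 51.7 and 54.2 CPM with siAtf3 and cholesterol, and 25.2, 25.8, 24.2 and 26.4 CPM with scramble and cholesterol, a log2 fold change of 1.01 ± 0.06 (adjusted p = 4.69e-16). All 4 siAtf3 libraries lay above all scramble libraries, while scramble control stood at 53.3 to 55.9 CPM. Within siAtf3, Rrm1 still fell with cholesterol, with a log2 fold change of -0.69 to -0.56 over 15 alternative runs. Mcm4 had 19.9, 19.9, 19.2 and 22.5 CPM against 12.5, 11.9, 12.5 and 11.2 CPM (0.76 ± 0.07), and Mcm6 had 23.7, 21.5, 22.5 and 22.4 CPM against 14.9, 13.8, 12.9 and 13.2 CPM (0.72 ± 0.07). Pcna had 39.99, 40.2, 40.004 and 39.4 CPM and rose by 0.37 ± 0.05. Mcm2 fell (-0.44 ± 0.09, adjusted p = 1.40e-04), so that 4 of 10 rose and 1 fell, against 23% of all genes higher and 27.4% lower. Rrm2 was at 0.00, and at 0.19 when scaled by total counts.

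Of the mitotic genes, 3 of 21 were higher and 3 lower with siAtf3 than with scramble under cholesterol, against 23% of all genes higher and 27.4% lower. Cdk1 had 10.4, 8.77, 7.64 and 9.05 CPM, all above the highest scramble library at 6.42 CPM, with a log2 fold change of 0.74 ± 0.12 (adjusted p = 4.89e-06). Cdc20 and Aurka rose by 0.37 ± 0.13 and 0.35 ± 0.13 (adjusted p = 0.0231 and 0.0192). Mki67, Top2a and Prc1 fell, with log2 fold changes of -0.63 ± 0.12, -0.40 ± 0.10 and -0.32 ± 0.11. The Cdc20, Aurka and Prc1 calls were each lost when single libraries were left out: Aurka without scramble cholesterol library 1 (adjusted p = 0.0567), Cdc20 without scramble cholesterol library 3 (0.0765) or siAtf3 cholesterol library 2 (0.0581), and Prc1 without scramble cholesterol library 3 or 4 or siAtf3 cholesterol library 3 or 4 (0.0556 to 0.0932). Under total counts the median of all genes was 0.17, the split was 6707 higher and 2712 lower in place of 3898 and 4659, 8 replication genes were higher, and the mitotic genes went to 5 higher and 1 lower, Top2a and Prc1 no longer passing. Precursor and fibroblast markers summed to 3749 to 4134 CPM with siAtf3 and cholesterol, with 6 of 9 lower than with scramble (6960 to 7895 CPM). Endothelial markers summed to 203 to 236 against 278 to 368 with scramble and cholesterol, and smooth muscle and pericyte markers to 228 to 252 against 321 to 350.3. Macrophage markers overlapped, at 138 to 172 against 127 to 156. The part of these markers was not tested.

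With both siRNAs and cholesterol, 2 mitotic genes were higher and 3 lower, and 4 replication genes higher and 2 lower, against 20.8% of all genes higher and 23.9% lower. Rrm1 had 44.4, 42.5, 43.98 and 48.2 CPM (0.82 ± 0.06, adjusted p = 3.64e-13), Mcm4 17.6, 19.2, 17.1 and 17.6 CPM (0.57 ± 0.07) and Mcm6 18.6, 18.4, 18.02 and 21.4 CPM (0.48 ± 0.07). The means of all 3 lay between those of the scramble and the siAtf3 libraries, and for Rrm1 the double and siAtf3 libraries overlapped. Atf3 had 50.8 ± 2.99 CPM with both siRNAs and cholesterol and 40.9 ± 7.88 CPM with siAtf3 and cholesterol, and the part of this was not tested. Pcna rose by 0.38 ± 0.05, Cdk1 by 0.48 ± 0.13 and Aurka by 0.33 ± 0.13. Mki67, Top2a and Prc1 were at -0.47 ± 0.12, -0.41 ± 0.10 and -0.36 ± 0.11, Mcm2 at -0.34 ± 0.09. Rrm2, with 33.01, 29.4, 30.6 and 32.96 CPM, was also lower than with scramble (-0.30 ± 0.08, adjusted p = 0.00253). The Aurka call was lost without scramble cholesterol library 1 or 2 or double cholesterol library 2, 3 or 4 (adjusted p = 0.0523 to 0.0849). Scaling by total counts moved the median of all genes to 0.14 and the split from 3537 higher and 4056 lower to 6049 and 2299. The calls of Mcm2, Prc1 and Rrm2 then ended. Precursor and fibroblast markers summed to 4439 to 5213 CPM against 6960 to 7895 with scramble and cholesterol, macrophage markers to 209.5 to 231 against 127 to 156, endothelial markers to 235 to 276 against 278 to 368, and smooth muscle and pericyte markers to 207 to 237 against 321 to 350.3. Their part was not tested.

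**Figure D3:**
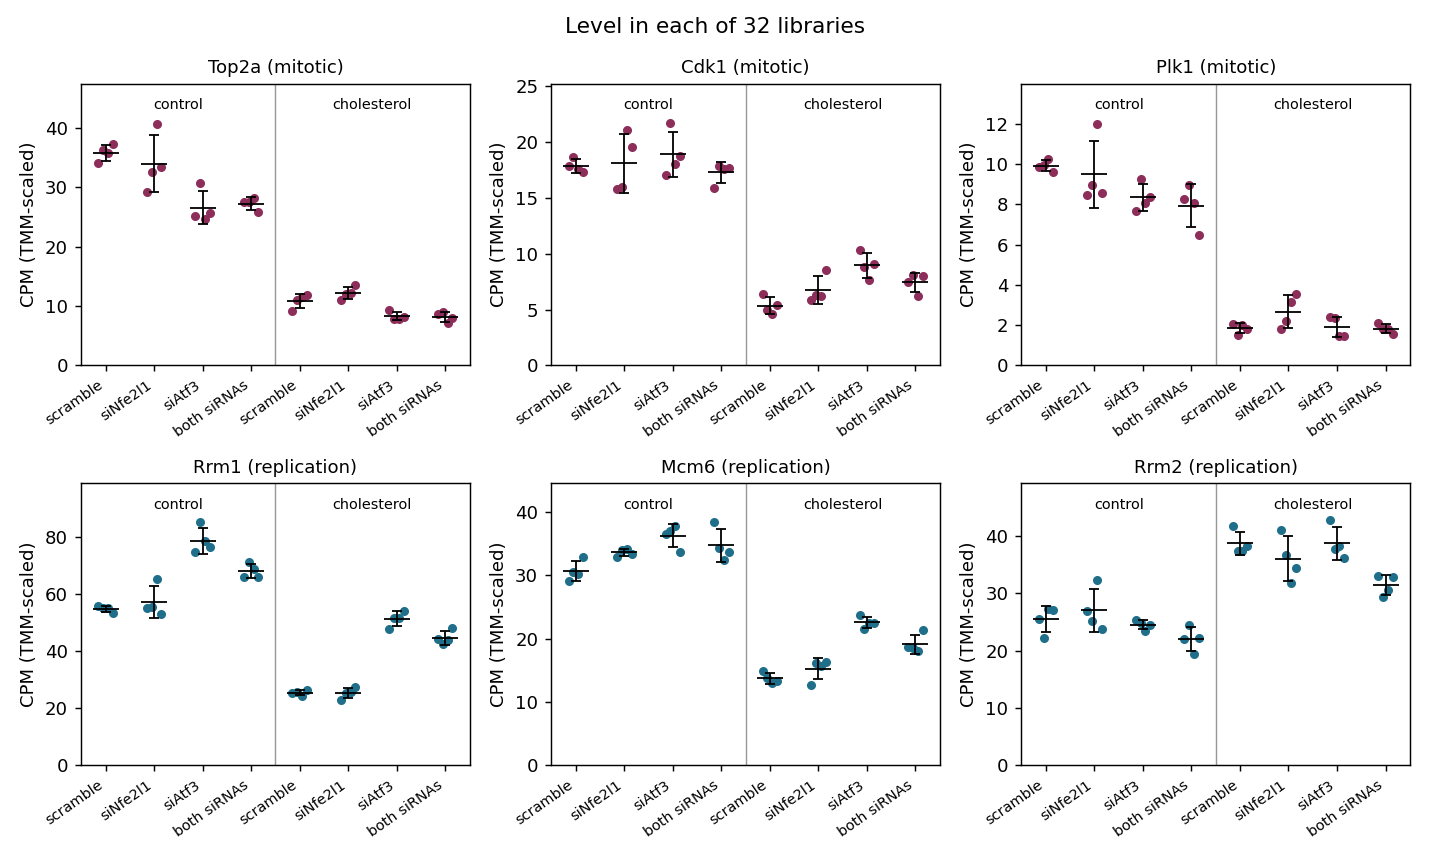
CPM on TMM-scaled library sizes (vertical axes from 0) of Top2a, Cdk1, Plk1, Rrm1, Mcm6 and Rrm2 in each of 32 libraries, by siRNA (horizontal axis) in control and cholesterol. Dashes and bars are mean ± SD of 4 libraries. Rrm1 with siAtf3 and cholesterol sits at 47.8 to 54.2 CPM, near scramble control (53.3 to 55.9 CPM) but below siAtf3 control, whereas Top2a stays at 7.81 to 9.40 CPM.

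The interaction term, which compares the cholesterol response with siAtf3 to that with scramble, was called for 3 mitotic and 4 replication genes. It was above 0 for 18 of 21 mitotic genes (median 0.21, against -0.01 over all genes), most of which did not pass the test. These terms all rest on the same libraries, so their shared sign is not separate evidence. Of all genes 6.21% were called above and 9.13% below 0. The log2 fold change of Cdk1 with cholesterol was -1.74 with scramble and -1.08 with siAtf3, a difference of 0.66 ± 0.16 (adjusted p = 0.00543). The difference was 0.61 ± 0.17 for Cdc20 (4.56, 5.77, 5.46 and 5.31 CPM with siAtf3 and cholesterol, adjusted p = 0.0149) and 0.56 ± 0.18 for Cenpe (adjusted p = 0.0320). Cenpe went from 11.4, 12.3, 11.8 and 12.1 to 2.62, 3.77, 3.21 and 3.94 CPM with scramble and from 8.68, 9.42, 7.70 and 8.29 to 4.39, 3.52, 3.33 and 3.20 CPM with siAtf3, so that the siRNA groups did not overlap in control and did with cholesterol. Its call was lost without scramble cholesterol library 1 or 3, siAtf3 control library 3 or siAtf3 cholesterol library 1 (adjusted p = 0.0538 to 0.0931). For Mcm4 the difference was 0.57 ± 0.09 (adjusted p = 7.51e-05), for Rrm1 0.49 ± 0.08 (adjusted p = 1.31e-04) and for Mcm6 0.47 ± 0.10 (adjusted p = 0.00111). Mcm7 had a negative term (-0.25 ± 0.09, adjusted p = 0.0449), which was lost under 17 alternatives. Cdk1, Cdc20, Mcm4, Mcm6 and Rrm1 passed in every alternative run.

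With both siRNAs the interaction was called for Cdk1 (0.52 ± 0.16), Cdc20 (0.56 ± 0.17), Mcm4 (0.47 ± 0.09), Mcm6 (0.30 ± 0.10), Rrm1 (0.51 ± 0.08) and, below 0, Mcm7 (-0.34 ± 0.09), against 6.52% of all genes above and 7.21% below 0. Mcm4, Mcm7 and Rrm1 passed in every alternative run. Cdk1 did not pass without double control library 1, scramble cholesterol library 3 or double cholesterol library 2 or 4 (adjusted p = 0.0514 to 0.0688). Cdc20 did not pass without scramble control library 3, double control library 3 or 4, scramble cholesterol library 3 or double cholesterol library 1 or 3 (0.0507 to 0.0741). Mcm6 did not pass with no filter on low counts, or without scramble control library 4, double control library 2, 3 or 4, scramble cholesterol library 3 or double cholesterol library 4 (0.0504 to 0.0904). All interactions share the scramble libraries. Total counts moved the split of all genes called to 1321 above and 1228 below 0 with siAtf3 (from 1054 and 1551), and to 1474 and 982 with both siRNAs (from 1107 and 1224).

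**Figure D4:**
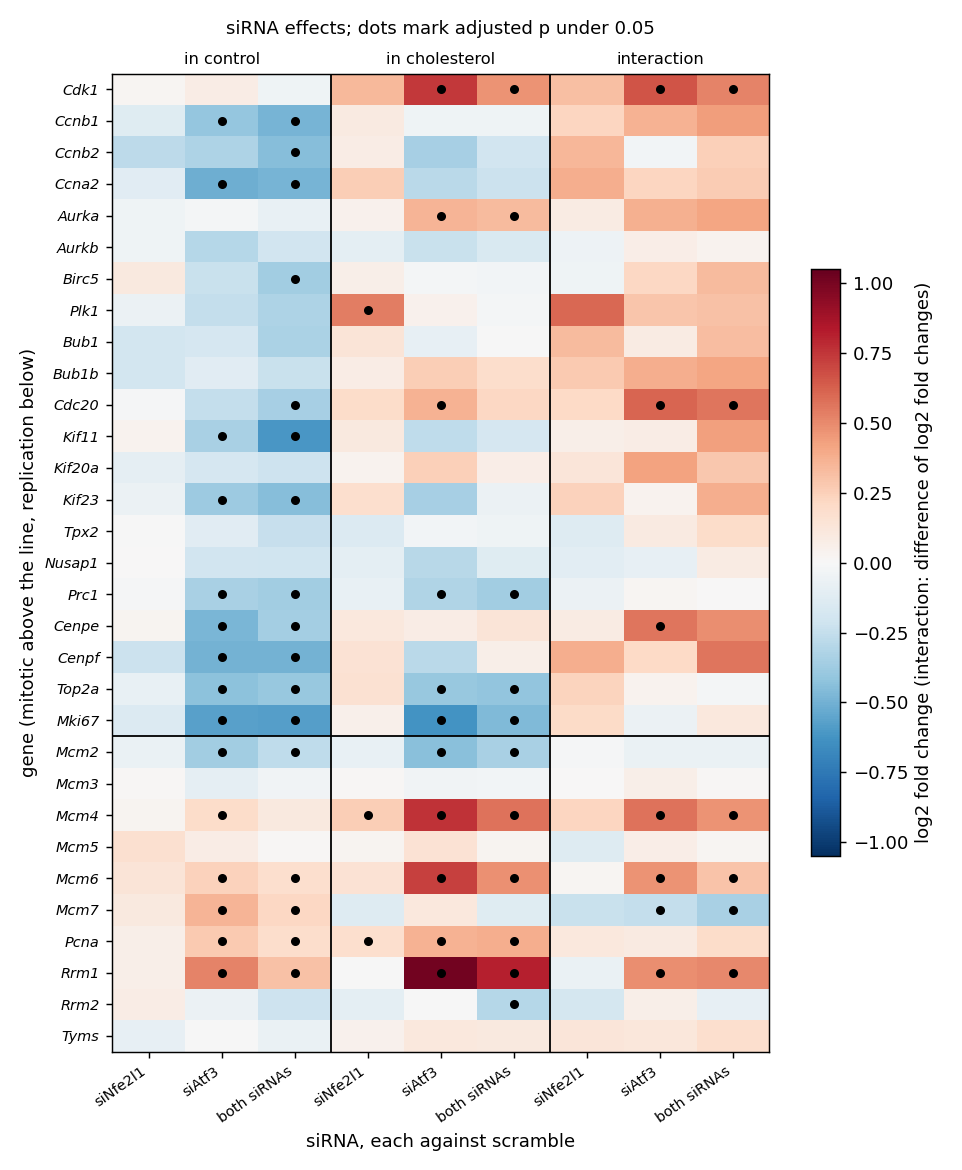
Log2 fold change of each siRNA against scramble in control and in cholesterol, and the interaction with cholesterol (columns), for 31 genes (rows, mitotic above the line), as colour. Black dots mark adjusted p under 0.05. Rrm1, Mcm4, Mcm6 and Pcna are red with siAtf3 in both treatments, and dots are absent from the siNfe2l1 control and siNfe2l1 interaction columns.

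Silencing Nfe2l1 alone was not followed by a detected change of any of the 31 genes in control treatment, where 3.13% of all genes were called higher and 2.87% lower. At an unadjusted p under 0.05, 0 mitotic genes and 1 replication gene passed, and DESeq2 and limma-voom called none either. The spread in this group was wide. Top2a had 29.2, 32.5, 40.7 and 33.4 CPM, Plk1 8.47, 8.97, 11.97 and 8.58 CPM and Rrm1 55.01, 55.5, 65.4 and 53.2 CPM, library 3 being highest each time. With cholesterol, Plk1 had 1.80, 2.19, 3.15 and 3.56 CPM and was called higher than with scramble (0.54 ± 0.19, adjusted p = 0.0412), as were Mcm4 (0.25 ± 0.07) and Pcna (0.17 ± 0.05), against 11.3% of all genes higher and 8.59% lower. Without siNfe2l1 cholesterol libraries 3 and 4 Plk1 was at 0.11 (adjusted p = 0.837), Mcm4 at 0.22 (0.112) and Pcna at 0.15 (0.195). Plk1 also did not pass without any 1 of the scramble cholesterol libraries or siNfe2l1 cholesterol library 3 or 4, Mcm4 without siNfe2l1 cholesterol library 2 or 3, and Pcna without scramble cholesterol library 3 or siNfe2l1 cholesterol library 4. The split of all genes was 1923 higher and 1459 lower, and 2615 and 992 under total counts. The interaction was called for 0 of 31 genes, by edgeR and DESeq2 alike (3 at an unadjusted p under 0.05), with 0.206% of all genes above and 0.0412% below 0. Without siNfe2l1 cholesterol library 1 it was called for 1 mitotic and 1 replication gene and for 1337 genes in all, in place of 42.

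The wider pathway was read from lists of genes that are not among the 31. With cholesterol in scramble the shares to read these counts against are 32.3% of all genes lower and 32.9% higher. Spindle, cytokinesis and condensin genes fell with cholesterol in scramble in 20 of 21 cases (median -1.55), with Racgap1 at -1.64 ± 0.11, Ncapd2 at -1.17 ± 0.09, Ckap2l at -1.64 ± 0.13 and Ncaph at -1.64 ± 0.14. Kinetochore and checkpoint genes fell in 15 of 17 cases and 1 rose (median -0.95), with Mad2l1 at -1.07 ± 0.10, Nuf2 at -2.05 ± 0.19 and Incenp at -0.85 ± 0.09. Of 18 genes of mitotic entry and mitotic transcription, 8 fell and 6 rose, near the shares of all genes. Foxm1, the transcription factor of G2 and mitotic genes, went from 13.9 to 6.26 CPM (-1.15 ± 0.09, adjusted p = 3.66e-14), while Wee1, the kinase that holds Cdk1 inactive, went from 12.1 to 21.97 CPM (0.87 ± 0.09). With siAtf3 in control 3 of 21 spindle genes were lower and 1 higher, and 2 of 17 kinetochore genes lower and 1 higher, no more than the 18.2% and 18.1% of all genes.

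Polymerase and fork genes fell in 19 of 23 cases with cholesterol in scramble (median -0.64), with Uhrf1 at -1.47 ± 0.11 and the maintenance methyltransferase Dnmt1 at -0.94 ± 0.07. With siAtf3, 13 of 23 were higher than with scramble in control, against 18.1% of all genes, and 18 of 23 with cholesterol, against 23% (median 0.50). Pold3, a subunit of DNA polymerase delta, rose by 0.54 ± 0.06 in control and 0.94 ± 0.06 with cholesterol (adjusted p = 8.97e-16), where it had 26.3 CPM against 13.6 with scramble. Pola2 of DNA polymerase alpha rose by 0.49 ± 0.08 and 0.92 ± 0.09, and the clamp loader gene Rfc3 by 0.67 ± 0.10 and 0.97 ± 0.10. With both siRNAs 8 of 23 were higher in control and 17 of 23 with cholesterol, against 12.9% and 20.8% of all genes. Of the origin licensing genes 10 of 20 were lower and 6 higher with cholesterol in scramble, against 32.3% and 32.9% of all genes. Cdc6, a loader of the helicase, was at -1.48 ± 0.16 and its partner Cdt1 at 1.13 ± 0.13. Of 14 genes of nucleotide synthesis 9 fell and 5 rose, the latter near the share of all genes, with Cad at -0.74 ± 0.06 and Shmt1 at 0.58 ± 0.08.

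Several genes of the G1 to S step were higher with siAtf3. Ccne1 (cyclin E1) rose by 0.68 ± 0.07 in control and 1.23 ± 0.07 with cholesterol, where it had 31.3 CPM against 13.3 with scramble. Its kinase partner Cdk2 rose by 0.55 ± 0.06 and 1.07 ± 0.06 (adjusted p = 1.44e-16), the Cdk phosphatase gene Cdc25a by 0.51 ± 0.07 and 1.00 ± 0.07, and E2f1 by 0.61 ± 0.07 and 0.93 ± 0.07. In all, 9 of 21 genes of this list were higher and 5 lower with siAtf3 in control, and 12 higher and 3 lower with cholesterol. Of all genes 18.1% were higher and 18.2% lower in control, and 23% and 27.4% with cholesterol. With cholesterol in scramble 13 of 21 fell and 5 rose (all genes 32.3% and 32.9%), Ccnd1 (cyclin D1) at -1.65 ± 0.09, Ccnd3 at -0.98 ± 0.06, Cdk2 at -0.74 ± 0.06 and Rbl1 at -1.11 ± 0.10.

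Among 16 genes of Cdk inhibition and growth arrest, 9 rose and 6 fell with cholesterol in scramble, against 32.9% and 32.3% of all genes. Gadd45a went from 21.1 to 238 CPM (3.49 ± 0.27, adjusted p = 1.84e-11). Cdkn1a, the inhibitor p21, went from 292 to 479 CPM with scramble (0.71 ± 0.08, adjusted p = 3.16e-09) and from 400.1 to 398 CPM with siAtf3 (-0.01 ± 0.08, adjusted p = 0.948). Its interaction term was -0.72 ± 0.11 (adjusted p = 9.08e-05). With siAtf3 it was higher than with scramble in control (0.46 ± 0.08) and lower with cholesterol (-0.27 ± 0.08). Btg2, an antiproliferative gene, had an interaction of -1.49 ± 0.27. Of the 16 genes 7 were called below and 1 above 0, against 9.13% and 6.21% of all genes. The part of these genes in the mitotic and replication changes was not tested.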

How the data were processed

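Poly(A) RNA of 32 libraries was measured, and the authors deposited unnormalised counts of reads for each gene. Per the submitters' processing notes, fastp, HISAT2 2.0.5, featureCounts 1.5.0-p3 and the build GRCm39 were used. Strandedness and the treatment of reads with several matches are not given in the sources used here. Columns were matched to samples by name, and C in a column name was read as cholesterol. The 8 groups come from the sample titles, which call the replicates biological. Counts were fitted with edgeR 4.0.16 (R 4.3.3): filterByExpr (minimum count 10, minimum total 15), TMM scaling, 8 group means over 32 libraries (24 residual degrees of freedom), robust quasi-likelihood tests and Benjamini-Hochberg adjustment over all 16984 genes tested, called at 0.05. The 13 contrasts were 10 comparisons of 2 groups and 3 interactions. Summaries used log2 CPM with a prior count of 2. CPM per kb used the deposited gene lengths. Alternatives were DESeq2 1.42.0, limma-voom 3.58.1, other scalings, no filter, only the groups compared, a replicate block and leaving out each library. Leaving out siNfe2l1 cholesterol libraries 3 and 4 was chosen after seeing the data. The test was checked on simulated counts in which few genes changed, as many up as down. That setting cannot check the choice of scaling, since many genes changed in the data. Replicates were compared pairwise and none matched within sampling noise (chi-square per degree of freedom 2.75 to 44.7). The 31 genes and the gene lists were chosen with earlier results of these data known. Named genes are all 31, Nfe2l1, Atf3, Cdkn1a and, from each other list, up to 4 called genes with the smallest adjusted p per comparison. Promoters printed are the 2 of each set with the largest cholesterol response and an entry. Figures were drawn with matplotlib 3.10.9.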

Additional observations from a re-analysis of the deposited data

Results flagged for a closer look

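Among 264 groups of 4 libraries (31 genes and the set summaries, 8 groups each), 14 had 1 library whose distance to the nearest other exceeded Dixon's 95% limit for the share of the range. Chance flags about 1 in 20 such groups. Cdk1 had 15.9 CPM in double control library 1 and 17.6 to 17.9 CPM in the others. Plk1 had 12.0 CPM in siNfe2l1 control library 3 and 8.47 to 8.97 CPM in the others. Bub1b had 10.1 CPM in scramble control library 2 and 9.41 to 9.51 CPM in the others. Bub1b had 2.58 CPM in scramble cholesterol library 1 and 3.10 to 3.13 CPM in the others. Cdc20 had 13.9 CPM in siAtf3 control library 2 and 11.1 to 11.6 CPM in the others. Cdc20 had 13.1 CPM in double control library 1 and 10.4 to 10.7 CPM in the others. Top2a had 30.7 CPM in siAtf3 control library 2 and 24.7 to 25.7 CPM in the others. Mki67 had 36.9 CPM in scramble control library 2 and 34.99 to 35.3 CPM in the others. Mki67 had 10.9 CPM in siNfe2l1 cholesterol library 3 and 13.6 to 14.03 CPM in the others. Mcm4 had 28.8 CPM in siNfe2l1 control library 3 and 25.5 to 25.9 CPM in the others. Mcm6 had 12.7 CPM in siNfe2l1 cholesterol library 1 and 15.7 to 16.3 CPM in the others. Mcm7 had 34.5 CPM in siNfe2l1 cholesterol library 1 and 28.3 to 28.7 CPM in the others. Mcm7 had 37.6 CPM in siAtf3 cholesterol library 1 and 34.85 to 34.92 CPM in the others. Pcna had 36.5 CPM in scramble control library 2 and 37.6 to 37.7 CPM in the others.

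The cholesterol response differed between siRNA and scramble by the interaction test of edgeR in 13 of 93 tests of these genes. Of all genes, that test called 6.21% above and 9.13% below 0 with siAtf3, and 6.52% and 7.21% with both siRNAs. For siNfe2l1 the shares of all genes were 0.206% and 0.0412%. With siAtf3 the differences on the log2 scale were 0.66 for Cdk1, 0.61 for Cdc20, 0.56 for Cenpe, 0.57 for Mcm4, 0.47 for Mcm6, -0.25 for Mcm7 and 0.49 for Rrm1. With both siRNAs the differences on the log2 scale were 0.52 for Cdk1, 0.56 for Cdc20, 0.47 for Mcm4, 0.30 for Mcm6, -0.34 for Mcm7 and 0.51 for Rrm1.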

How the results depend on the processing

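The 21 mitotic genes were called lower with cholesterol under each alternative run in all 4 siRNA backgrounds. Of the log2 fold changes of the 31 genes, 6696 stayed on the same side of the threshold, the called ones in the same direction. A call was lost for 109 and gained for 76, and 1 gained a call against its sign in the main fit: Rrm2 with siAtf3 in cholesterol, at 0.19 under total counts. Directions of changes called in neither run were not compared. Under total counts 5 mitotic genes were called with siAtf3 in control, 9 replication genes with siAtf3 in cholesterol and 2 mitotic genes with siNfe2l1 in cholesterol. Of the 16984 genes tested, that scaling called 5913 higher and 1871 lower with siAtf3 in control, and 6707 and 2712 with siAtf3 in cholesterol. With siNfe2l1 in cholesterol it called 2615 and 992. For siNfe2l1 in cholesterol DESeq2 called 2 mitotic genes, limma-voom 0, the groups compared alone 0 mitotic and 0 replication genes, no filter 0 replication genes, and the fit without libraries 3 and 4 of that group 0 and 0. All genes called there were 3382, 645 with the groups compared alone and 1206 without those libraries. The siNfe2l1 interaction called 42 genes, and 72 with no filter, 344 by DESeq2, 2 with the groups compared alone and 5 without those libraries. The siAtf3 interaction called 5 mitotic genes with the groups compared alone, where 1392 of all 16378 genes tested were called above and 1413 below 0. The cause was not tested.

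The mitotic summary under total counts was -0.16 with siAtf3 and -0.24 with both siRNAs in control, and -1.72 with scramble and cholesterol. The replication summary from summed CPM and from total counts was 0.21 and 0.25 with siAtf3 in control, 0.10 and 0.14 with both in control, -0.46 and -0.71 with scramble and cholesterol, -0.45 and -0.63 with siNfe2l1 and cholesterol, and -0.14 and -0.25 with siAtf3 and cholesterol. From summed CPM it was -0.29 with both and cholesterol.

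Leaving out 1 library at a time gave 3 to 5 replication genes for both siRNAs in control (3875 to 4158 genes in all). It gave 0 to 3 mitotic genes for their interaction (1634 to 2696 genes in all). For siNfe2l1 in cholesterol it gave 0 to 2 mitotic and 1 to 4 replication genes (2153 to 4755 genes in all). For the siNfe2l1 interaction it gave 0 to 1 mitotic and 0 to 1 replication genes and 2 to 1337 genes in all, the highest without siNfe2l1 cholesterol library 1. The replicate numbers were not taken to pair the libraries, since deviations of same-numbered libraries correlated at -0.04 to 0.26 and in 0 of 10 comparisons did every pair exceed 0.1. In all 4 cholesterol groups, however, library 1 had the highest first component and the highest Atf3 level, a hint from the data and not from the design. With a replicate block the siNfe2l1 interaction called 143 genes and both siRNAs in control 6 replication genes in place of 5. No comparison had every library correlating best with its own number (0 to 6 of 8, the highest for siAtf3 and for both siRNAs in cholesterol). Low counts, such as 23 for Kif23, carry more counting noise, though with cholesterol in scramble Kif23 did not have the largest standard error.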
